A study of Mus musculus with 11 samples.

Results

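The comparison described here set OCT4-positive against OCT4-negative endoderm cells of one culture, both carrying the surface receptor PDGFRA, and asked which genes differed between them. Its members are the genes with enough counts in the 6 libraries of these populations, 12541 of the 48952 genes in the bulk count table, and the 6 libraries are part of 9 bulk libraries among the 11 samples of the series. The study followed mouse naive extra-embryonic endoderm (nEnd), a culture model of the primitive endoderm (PrE) made from mouse embryonic stem cells and expanded on fibroblast feeders (MEFs) in RACL medium, which holds Activin A, the WNT agonist CHIR99021 and LIF. One nEnd line with an OCT4-mCherry reporter was stained for PDGFRA and sorted into 3 populations, with 3 libraries each and no further treatment. DP cells were positive for both OCT4-mCherry and PDGFRA, Pdgfra+ cells were positive for PDGFRA without the reporter, and Oct4+ cells, used here as a reference level only, carried the reporter without PDGFRA. Dead cells were gated out with DAPI in every sort. All populations came from the same reporter line, so the libraries do not sample different lines, and the study calls its replicates biological, while the labels do not say what separated them. The p-values of the main fit measure how the difference between DP and Pdgfra+ varied over the 3 replicate numbers, not the spread between single libraries.

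The PrE is the layer of the blastocyst that faces the cavity and later gives rise to visceral endoderm, an absorptive epithelium that surrounds the embryo, and to parietal endoderm, a migratory cell type that lays down a thick basement membrane. OCT4, the product of Pou5f1, is a POU-domain transcription factor best known from the pluripotent epiblast, and it is also present in the early PrE before being lost as the endoderm matures. PDGFRA is a receptor tyrosine kinase used as a surface marker of PrE from its specification onwards.

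Total counts lay between 8063450 and 8868300 reads in DP and between 8888165 and 10758050 reads in Pdgfra+. Libraries with the same replicate number deviated together, and the number was kept as a block in the fit. Replicate 1 stood apart in the size of its differences. Of the genes that passed, 81.8% of those higher in DP and 90.5% of those lower in DP had their smallest difference in this pair. The median log2 difference of the genes higher in DP was 0.70 in replicate 1, 1.22 in replicate 2 and 1.32 in replicate 3, and that of the lower genes was -0.47, -1.0 and -0.98. Pou5f1, whose product the sort was built on, also had its smallest difference in replicate 1, with log2 differences of 2.31, 4.82 and 4.13. Whether the separation in the sort has a part in this was not tested.

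A gene passed at an adjusted p below 0.05 in edgeR's quasi-likelihood test, and 2536 genes did so. Of the genes tested, 1299 (10.4%) were higher in DP and 1237 (9.86%) were lower. These shares are the reference for every count of list members below. A gene could enter the test through its counts in 1 population alone, so the direction of scarce genes was partly set by the filter. Past an additional log2 fold change of 1.5, a threshold the study also used, 515 genes (4.11%) were higher and 198 (1.58%) were lower. Large differences thus lay more often on the side of DP, whereas the counts without a fold threshold were close to even, and the median log2 fold change over all genes tested was 0.00. With a stricter filter, a mean of at least 10 CPM, the counts past the fold threshold were closer, at 151 higher and 102 lower. The imbalance thus lay largely among scarce genes. The libraries of the populations did not overlap for 4331 genes (34.5%), among them 2070 of those that passed, and 2535 of those that passed differed in 1 direction in all 3 pairs. Without the block, 859 genes passed, all of them among the 2536. Leaving out any replicate number left 1 residual degree of freedom. Without replicate 3 no gene passed in edgeR, with 3215 genes at an unadjusted p below 0.05 and a smallest adjusted p of 0.104. On the same 4 libraries DESeq2 called 610 genes, 593 of them among the 2536. Leaving out replicate 2 gave 1223 calls in edgeR, and leaving out replicate 1 gave 3568. All calls below are from the blocked fit of 6 libraries, and many of them share the adjusted p of 0.0184 because the Benjamini-Hochberg step ties neighbouring ranks.

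The sorted proteins were first checked in the transcripts. Pou5f1 (chr17:35506018-35510772, plus strand, mm10) was at 124, 230 and 292 counts per 1000000 reads (CPM) in DP and at 24.7, 7.94 and 16.5 CPM in Pdgfra+. Every DP library lay above every Pdgfra+ library, and the log2 fold change was 3.76 ± 0.47 (SE, adjusted p = 0.0184). This difference is set by the gate and serves as a check of the labels. Pdgfra (chr5:75152292-75198215, plus strand) was at 592, 395 and 675 CPM in DP and at 641, 508 and 903 CPM in Pdgfra+. The groups overlapped, although DP was the lower library in all 3 pairs, and the gene did not pass, with a log2 fold change of -0.28 ± 0.11 (adjusted p = 0.104). Gata6, a zinc finger factor that specifies PrE, did not pass either (log2 fold change 0.15 ± 0.10), with 371 to 424 CPM in DP and 324 to 428 CPM in Pdgfra+. Both populations therefore carried the transcripts of the endoderm sort. In bulk libraries a larger share of cells with a transcript and more transcript per cell cannot be told apart, and this holds for every value below.

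**Figure D1:**
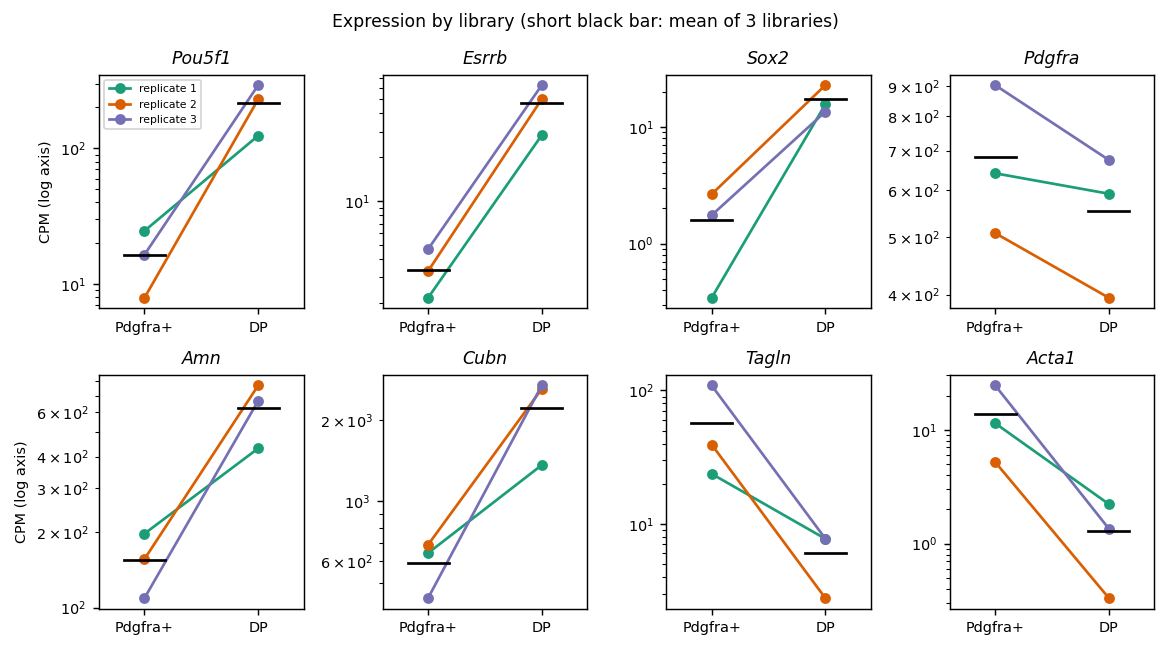
CPM (log axis) of 8 genes in each library, with lines that join the Pdgfra+ and DP library of a replicate number and short black bars for the mean of 3 libraries. Pou5f1, Esrrb, Sox2, Amn and Cubn lie higher and Tagln and Acta1 lower in DP without overlap, whereas Pdgfra overlaps between the populations.

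Among genes with at least 10 CPM in the higher population, the largest excess in DP belonged to Tcl1, a co-activator of AKT kinases expressed in embryonic stem cells. Tcl1 was at 7.95, 26.3 and 38.3 CPM in DP and at 0.801, 0.0945 and 1.95 CPM in Pdgfra+, and its log2 fold change was 4.71 ± 0.57. Ly6a, which encodes the GPI-anchored surface antigen SCA-1, reached 63.4, 113 and 20 CPM against 6.86, 0.851 and 0.877 CPM (4.62 ± 0.63). The other 6 genes of this ranking were Shisal2b (4.55), Ly6g6e (4.17), Rbmxl2 (4.14), Cpxm2 (4.14), Stmn2 (4.12), which encodes a regulator of microtubule assembly, and Pramel7 (4.09), a gene of the PRAME-like family expressed in the inner cell mass. Their level in the Oct4+ libraries divided these genes. The mean of DP stood at 12.7% of the Oct4+ mean for Stmn2 and at 17.5% for Rbmxl2, but at 265% for Pramel7, 273% for Ly6g6e, 391% for Ly6a, 428% for Shisal2b and 1431% for the carboxypeptidase-like gene Cpxm2. The shares of Pramel7 and Ly6g6e rested largely on DP replicate 3. In DP replicates 1 to 3 Pramel7 was at 2.81, 4.54 and 28.7 CPM and Ly6g6e at 2.92, 5.43 and 22.1 CPM. Ly6a, Ly6g6e, Pramel7 and Rbmxl2 belong to families with similar copies, among which the authors' counting could split reads, which leaves their values uncertain.

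The genes with the largest deficit in DP included several of muscle. Acta1, which encodes skeletal muscle actin, was at 2.22, 0.332 and 1.35 CPM in DP and at 11.4, 5.20 and 24.5 CPM in Pdgfra+, with a log2 fold change of -3.33 ± 0.41. Tagln, which encodes the actin-binding protein transgelin of smooth muscle, and Nexn, which encodes the filament protein nexilin, followed at -3.05 and -3.03. Tnnc1, the calcium-binding troponin of slow and cardiac muscle, was at -2.76 and Mybpc3, the cardiac myosin-binding protein C, at -2.74. The remaining 3 were the kinesin gene Kif26b (-2.80), Aifm3 (-2.78) and the prostaglandin E receptor gene Ptger3 (-2.77). The ranking took only genes whose libraries did not overlap. Other troponin and myosin-binding protein C genes, counted after the values of these members were seen, were measured for 5 genes in all, of which only Tnnc1 and Mybpc3 passed.

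**Figure D2:**
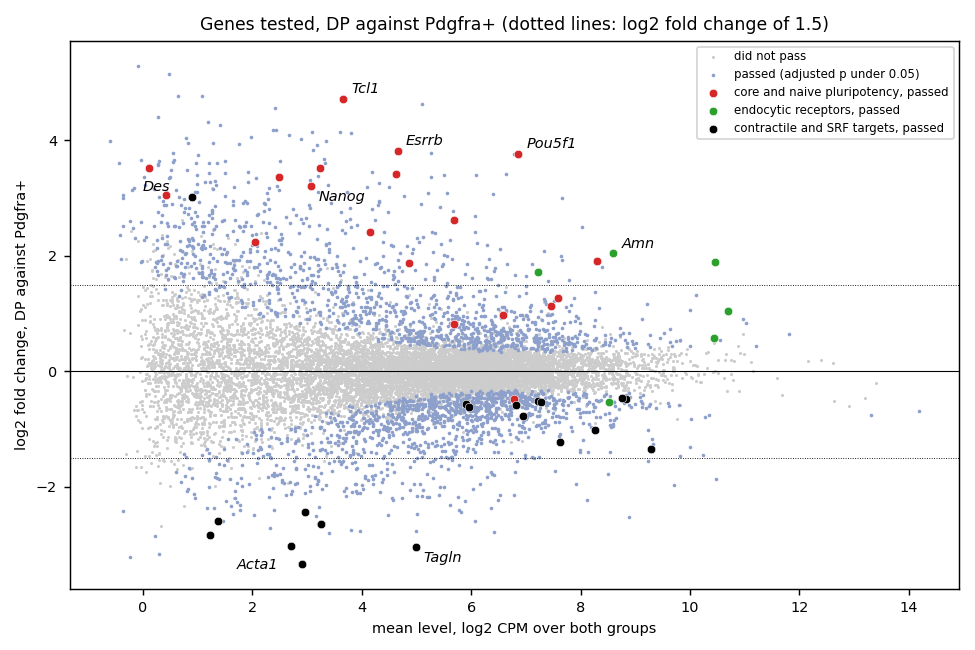
Each point is 1 of the 12541 genes tested, with the mean level over both populations in log2 CPM on the horizontal axis and the log2 fold change of DP against Pdgfra+ on the vertical axis. Coloured points are members of 4 lists that passed, and the contractile genes fall below 0 apart from Des, whereas the pluripotency genes lie above it apart from Tcf3.

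Core pluripotency genes were higher in DP for 7 of 11 members tested, or 6 of 10 without Pou5f1, which the gate sets, against 10.4% of all genes, and the median log2 fold change of the list was 2.61. Sox2, the HMG-box partner of OCT4, was at 15.6, 22.8 and 13.5 CPM in DP and at 0.343, 2.65 and 1.75 CPM in Pdgfra+ (3.51 ± 0.42). Nanog, a homeobox factor of the epiblast, was at 9.01, 24.9 and 11.3 CPM against 0.572, 2.93 and 1.56 CPM (3.20 ± 0.28). The groups did not overlap for either gene. The growth factor gene Gdf3 (3.52 ± 0.72, 51 reads in DP and 5 in Pdgfra+), the Nodal co-receptor gene Tdgf1 (3.36), the chromatin-associated Utf1 (2.61) and Dppa4 (2.41) were the others besides Pou5f1. Tcf3, the symbol of the bHLH factor E2A, was lower in DP, at -0.48. Sall4, Lin28a and Trim28 did not pass, with log2 fold changes of 0.21, 0.10 and 0.09 over 173 to 363 CPM for Lin28a, 211 to 302 CPM for Sall4 and 436 to 574 CPM for Trim28.

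Naive pluripotency genes, the set that marks the preimplantation epiblast and embryonic stem cells, were higher in 11 of 13 members tested, against 10.4% of all genes, and in none lower, with a median of 1.87. Esrrb, an orphan nuclear receptor that binds many OCT4 target genes, was at 28.4, 50.2 and 62.6 CPM in DP and at 2.17, 3.31 and 4.68 CPM in Pdgfra+. The populations were far from overlapping, and the log2 fold change of 3.81 ± 0.15 had an adjusted p of 0.00217. Nr0b1, which encodes the nuclear receptor DAX1, reached 13.6, 98.3 and 25.8 CPM against 3.55, 4.16 and 2.63 CPM (3.42 ± 0.47), with the highest level in DP replicate 2. Prdm14, at 1.60 to 3.99 CPM in DP, had a log2 fold change of 3.05. Klf2, Dppa5a, Zfp42 and Tfcp2l1 were higher by 2.24, 1.90, 1.87 and 0.81. Klf4, another Krüppel-like factor of the naive network, did not pass (-0.26 ± 0.10), at 196 to 376 CPM in DP and 214 to 452 CPM in Pdgfra+. Without the block 6 core and 10 naive genes passed, and DESeq2 without replicate 3 called 6 and 8.

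Genes of the formative and primed states, which follow the naive state after implantation, gave 3 higher of 9, among them the zinc finger gene Zic2 (0.87) and the DNA methyltransferase gene Dnmt3b (1.81). Car14, a carbonic anhydrase gene, was lower (-2.27), while Otx2, Fgf5, Pou3f1, Sox3 and Sall2 did not pass.

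How far these transcripts approached their level in the Oct4+ cells was described without a test for 25 genes of the core, naive, formative and epiblast lists that had at least 10 CPM in Oct4+ and at least 2 times their Pdgfra+ level there. The last requirement left out 8 members that are also well expressed in Pdgfra+, and these stood between 59.8% (Tcf3) and 240% (Dnmt3b), with Klf4 at 119%, Tbx3 at 137%, Lin28a at 166% and Klf5 at 193%. With them the median over 33 genes was 25.8%. Over the 25 genes the mean of DP reached a median of 15.9% of the Oct4+ mean, or 13.1% where library totals alone were used for scaling, and the medians of the DP libraries were 12.7%, 15.9% and 17.0%. The genes spread widely around that median. Nanog stood at 3.07%, Sox2 at 4.92%, Tdgf1 at 2.64%, Klf2 at 2.97% and Esrrb at 8.79%, whereas Pou5f1 stood at 24.0%, Dppa4 at 43.5%, Dppa5a at 54.8%, Nr0b1 at 57.2% and Tcl1 at 69.4%. For Tcl1 the DP libraries lay at 22.8%, 75.6% and 110%, and for Nr0b1 at 16.9%, 123% and 32.1%, so that single libraries reached the level of Oct4+ for these genes. Nanog, at 1.83%, 5.09% and 2.30%, stayed far below it in every library. The share in DP includes any level already present in Pdgfra+, which varied by gene. Trim28 stood at 28.0% in DP and 26.5% in Pdgfra+, and Sox3 at 2.51% and 2.96%. The Pdgfra+ mean was 1.81% for Pou5f1 and 0.625% for Esrrb. The part of any Oct4+ cells in the DP gate was not tested. The 8 markers of the Oct4-only cells summed to 94.5, 274 and 104 CPM in DP and to 14.2 to 31.3 CPM in Pdgfra+, against 1736 to 2351 CPM in Oct4+, with Utf1 the highest marker in every DP and Pdgfra+ library.

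**Figure D3:**
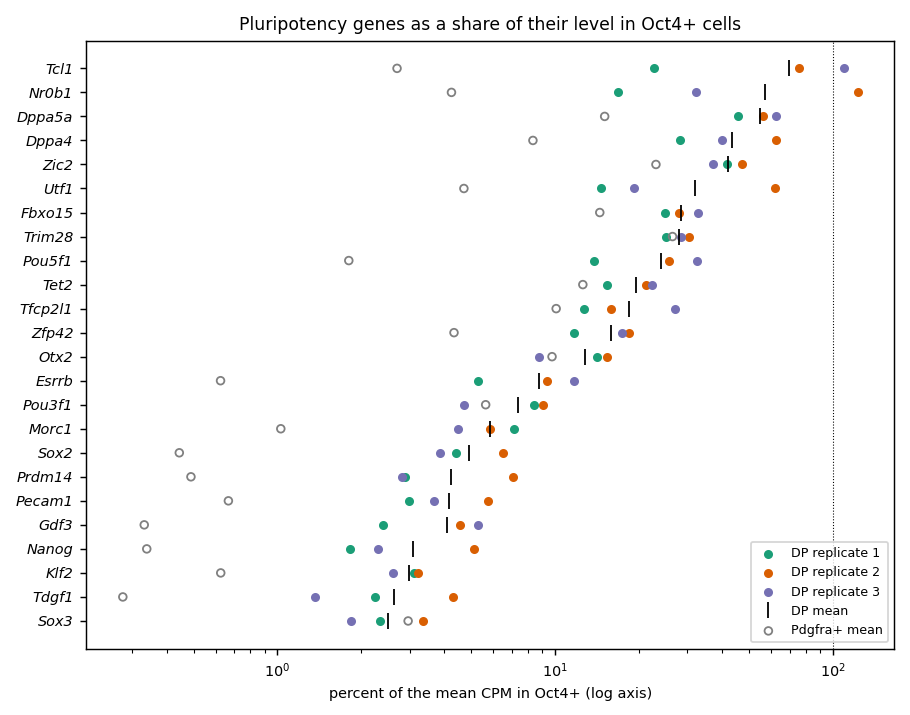
The level of 24 of the 25 pluripotency genes with at least 10 CPM in Oct4+ and at least 2 times their Pdgfra+ level there, in each DP library (filled points), their DP mean (bars) and their Pdgfra+ mean (open circles), as a percentage of the mean CPM in Oct4+ on a log axis. The DP means run from 2.51% for Sox3 to 69.4% for Tcl1.

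Genes that the study names as early and late PrE genes from the embryo differed in opposite directions. Of 6 early genes, 5 were higher in DP, against 10.4% of all genes, and none lower, or 4 of 5 without Pou5f1, which the gate sets. They were Pou5f1, the FGF receptor gene Fgfr2 (1.68 ± 0.29), the T-box factor gene Tbx3 (1.26), the Krüppel-like factor gene Klf5 (1.13) and the isocitrate dehydrogenase gene Idh1 (0.63), and Gata6 did not pass. Fgfr2 was at 59.0, 101 and 109 CPM in DP and at 27.6, 41.2 and 17.5 CPM in Pdgfra+, without overlap. Of 6 late genes, 4 were lower in DP, against 9.86% of all genes, and none higher. The transcriptional co-regulator gene Cited1 was at 238, 106 and 250 CPM against 305, 284 and 567 CPM (-0.97 ± 0.20), and the collagen IV gene Col4a1 (-0.69), Vegfa (-0.56) and the nuclear receptor gene Hnf4a (-0.47) followed. Gata4 and Foxa2, factors of differentiated endoderm, did not pass, at -0.28 and -0.35. The early list held 4 calls without the block and the late list none, and DESeq2 without replicate 3 called 4 early genes and 1 late gene. Sox17, an HMG-box factor of PrE, was lower as well (-0.51), at 202 to 310 CPM in DP and 328 to 410 CPM in Pdgfra+, whereas Elf3 (0.87), Hhex (0.81) and Foxq1 (0.63) were higher. None of these 4 endoderm factors, nor Hnf4a, passed without the block.

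The endocytic receptors of visceral endoderm were higher in DP for 5 of 7 members tested, against 10.4% of all genes, with a median of 1.04. Amn encodes amnionless, which anchors the large peripheral receptor cubilin (Cubn) at the apical membrane, and together they take up vitamin B12 with intrinsic factor and other ligands beside megalin (Lrp2). Amn (chr12:111271095-111276426, plus strand) was at 431, 768 and 667 CPM in DP and at 197, 156 and 109 CPM in Pdgfra+. Cubn was at 1361, 2601 and 2678 CPM against 644, 691 and 439 CPM. Every DP library lay above all Pdgfra+ libraries for both genes, with log2 fold changes of 2.04 ± 0.28 and 1.89 ± 0.28. The folate receptor gene Folr1 (1.72), Lrp2 (1.04) and the clathrin adaptor gene Dab2 (0.58) were higher too. The megalin chaperone gene Lrpap1 did not pass (0.44, adjusted p = 0.0514). The sum of Amn, Cubn, Lrp2 and Dab2 was 5076, 8673 and 8010 CPM in DP, 2939 to 3239 CPM in Pdgfra+ and 48.0 to 231 CPM in Oct4+. The means of Amn and Cubn in DP thus exceeded those of both other populations. Without the block 4 of the receptors passed, and DESeq2 without replicate 3 called 4.

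The secreted carriers of the yolk sac did not follow as a group, with 3 of 11 higher and 1 lower. The apolipoprotein genes Apoc1 (2.95 ± 0.40), Apoa4 (1.45) and Apoe (1.32) were higher, and Apoe was at 1319, 1833 and 1525 CPM in DP and at 776, 615 and 518 CPM in Pdgfra+. The retinol carrier gene Rbp4 was lower (-1.36). Afp and Ttr, carriers of the mature visceral endoderm, did not pass and were scarce in both populations, at 0.776 to 6.43 CPM and 9.97 to 40.2 CPM. Among genes of the anterior visceral endoderm, a signalling centre that patterns the later embryo, 4 of 6 tested were higher, against 10.4% of all genes. They were Nodal (2.53), its inhibitor Lefty1 (2.14), the homeobox gene Hesx1 (1.89) and the WNT inhibitor gene Dkk1 (1.59). Lhx1 and Otx2 did not pass, and Cer1 and Gsc, at 0.567 CPM or less in every library, were below the count filter. The DP means of Nodal and Lefty1 were 17.6% and 13.8% of those in Oct4+. Dkk1 was at 72.3, 195 and 111 CPM against 37.4, 42.1 and 38.6 CPM and did not overlap, and its DP mean was many times that of Oct4+ (3912%). In this list 1 gene passed without the block.

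Genes of parietal endoderm were lower in DP for 6 of 9 members, against 9.86% of all genes, and higher for none, with a median of -0.69. Thrombomodulin (Thbd), a surface receptor of thrombin, was at 41.3, 5.87 and 13.1 CPM in DP and at 91.5, 48.7 and 138 CPM in Pdgfra+ (-2.44 ± 0.44). The Activin antagonist gene Fst (-1.95), the plasminogen activator gene Plat (-1.39), the intermediate filament gene Vim (-1.21), Col4a1 (-0.69) and the parathyroid hormone receptor gene Pth1r (-0.63) were the others. DP replicate 2 held the lowest level of Thbd, Fst and Pth1r, and replicate 1 kept the highest in DP. None of the 6 parietal genes passed without the block, and DESeq2 without replicate 3 called 2. In the basement membrane list 3 of 15 were lower, Col4a2 (-0.75), Col4a1 and the prolyl hydroxylase gene P3h1 (-0.59), and the perlecan gene Hspg2 was higher (0.91). The laminin genes Lama1 and Lamb1, at 4369 CPM or more in every library, did not pass (-0.46, adjusted p = 0.0832, and -0.52, adjusted p = 0.0634), although their groups did not overlap.

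Contractile genes and targets of serum response factor (SRF) were lower in DP for 18 of 21 members, against 9.86% of all genes, and a median of -0.87. SRF binds the CArG box together with the actin-sensing co-activator MRTF and drives genes of the actin cytoskeleton and of muscle. Tagln (chr9:45929619-45936058, minus strand) was at 7.72, 2.77 and 7.74 CPM in DP and at 23.7, 39.3 and 109 CPM in Pdgfra+, with a log2 fold change of -3.05 ± 0.45. The Pdgfra+ libraries themselves differed several-fold, with replicate 3 the highest, and none overlapped with DP. Smooth muscle actin (Acta2) was at 2.34, 1.33 and 2.70 CPM against 5.38, 8.60 and 36.9 CPM (-2.64). Lmod1 (-2.83), which encodes an actin nucleator, the calponin gene Cnn1 (-2.59) and the myosin light chain gene Myl9 (-2.44) were of similar size. Other members differed less, with Flna, an actin cross-linker, at -1.35 and the tropomyosin gene Tpm1 at -1.02. Srf itself was at 88.6, 94.9 and 87.5 CPM in DP and at 141, 151 and 177 CPM in Pdgfra+ (-0.77 ± 0.11), and the co-activator gene Mrtfa was at -0.56. Myh9, the heavy chain of non-muscle myosin, did not pass (-0.10 ± 0.10), at 953 to 1044 CPM in DP and 1032 to 1151 CPM in Pdgfra+. Desmin (Des), an intermediate filament gene of muscle, went the other way (3.02 ± 0.45, with 85 reads in DP and 12 in Pdgfra+). Without the block 9 of the 18 passed, without replicate 2 there were 11, and DESeq2 without replicate 3 called 7.

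Because SRF binds the CArG box, promoters from RefSeq (build GRCm38.p6, from 250 bases before to 50 bases after the start) were searched on both strands. Of the 18 genes lower in DP, 16 had a promoter in the table, and 6 of their 19 promoters held a CArG box, or 31.6%, against 1.29% of the 12438 promoters of genes tested. The list was written to hold SRF targets, so this share describes the list. Over all genes lower in DP the share was 2.15%, and over all genes higher it was 1.15%. The stretches around the boxes are given on the strand of the gene, with the box in capitals, to show where the matches lay. Acta2, Cnn1 and Lmod1, whose deficits were among the larger ones of the list, had a promoter in the table without a box, and Tagln and Nexn had none in the table.
Acta1, chr8:123894809-123894878, minus strand, box at position -73 from the start: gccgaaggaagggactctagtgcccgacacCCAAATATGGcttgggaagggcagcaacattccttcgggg
Myl9, chr2:156775273-156775342, plus strand, box at position -161: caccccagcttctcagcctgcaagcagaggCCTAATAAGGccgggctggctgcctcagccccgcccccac
Cnn2, chr10:79988514-79988583, plus strand, box at position -56: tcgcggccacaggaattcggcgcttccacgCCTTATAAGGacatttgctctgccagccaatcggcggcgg
Filip1l, chr16:57549150-57549219, plus strand, box at position -62: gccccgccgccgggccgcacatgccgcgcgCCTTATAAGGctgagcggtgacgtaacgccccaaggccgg
Vcl, chr14:20929148-20929210, plus strand, box at position -227: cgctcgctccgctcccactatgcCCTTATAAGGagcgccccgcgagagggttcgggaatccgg
Srf, chr17:46556185-46556274, minus strand, boxes at positions -82 and -62: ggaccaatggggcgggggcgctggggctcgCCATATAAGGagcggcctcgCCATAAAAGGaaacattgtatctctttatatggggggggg
The box of Cnn2, Filip1l and Vcl had the same letters, and Srf held a pair of boxes in its own promoter. Acta1, with the largest log2 fold change of the list, and Vcl, with one of the smallest, both had a box. Matches of the motifs below were counted independently of one another. The octamer ATGCAAAT of POU factors was found in 1.54% of promoters of genes higher in DP, 1.26% of those lower and 1.28% of all. For the ESRRB motif TCAAGGTCA the shares were 0.384%, 0.297% and 0.265%, and for the GATA motif AGATAA 6.99%, 6.45% and 6.16%. The STAT motif TTCNNNGAA was in 6.22%, 5.34% and 6.5% of them, and the TEAD motif GGAATG in 13.1%, 14.8% and 12.2%. These shares lay close to those over all promoters, and matches in this window are a description of sequence only.

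**Figure D4:**
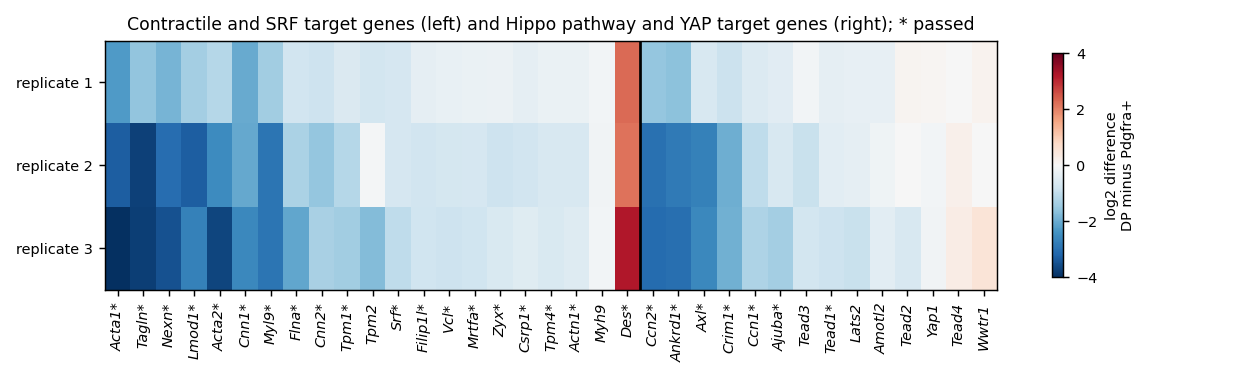
The log2 difference of DP minus Pdgfra+ within each replicate number (rows) for every tested contractile and SRF target gene (left) and every tested Hippo pathway and YAP target gene (right), on a colour scale from -4 to 4, with an asterisk where the gene passed. The 18 contractile genes that passed as lower are blue in all 3 pairs, and Des is red.

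YAP is the transcriptional effector of the Hippo pathway and works with TEAD factors. Of 14 genes of the pathway and its targets, 7 were lower in DP, against 9.86% of all genes, and none higher, with a median of -0.55. Ccn2, which encodes a secreted matricellular protein and is a common readout of YAP, was at 250, 69.4 and 129 CPM in DP and at 741, 546 and 1096 CPM in Pdgfra+ (-2.53 ± 0.31). Ankrd1, which encodes a nuclear ankyrin-repeat protein, was at 16, 7.54 and 7 CPM against 50.8, 54.4 and 58.2 CPM (-2.47 ± 0.28). The groups did not overlap for either gene. Axl (-1.95), a receptor tyrosine kinase gene, Crim1 (-1.56), Ccn1 (-0.91), Ajuba and Tead1 (-0.53) completed the set. The YAP targets Amotl2 (-0.29, adjusted p = 0.0872) and Lats2 (-0.52, adjusted p = 0.0976) did not pass. The effectors themselves did not pass either, with Yap1 at -0.04 ± 0.09 and Wwtr1, which encodes TAZ, at 0.22 ± 0.12. Without the block 3 of the 7 passed, and DESeq2 without replicate 3 called 4.

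The feeder fibroblasts express contractile genes too, and their markers were set beside these values. Of 14 feeder markers, 3 to 6 were over 1 CPM in a library, and the sum was 77.1, 145 and 53.7 CPM in Pdgfra+ and 63.6, 64.4 and 19.8 CPM in DP. Most of it was the fibrillin gene Fbn1, which was lower in DP (-1.13). The defining collagen and matrix genes were low in these 6 libraries, with Col1a1 at 0 to 2.60 CPM, Col3a1 at 0 to 7.60 CPM and Dcn at 0 to 0.132 CPM. Col1a2 was present in every one of them, at 1.22 to 4.78 CPM, with the highest level in DP replicate 2. The highest Col1a1 and Col3a1 were in Pdgfra+ replicate 3, which also had the highest Tagln. In Oct4+ replicate 1, Col1a1 was at 68.2 CPM and the sum of Tagln, Acta1, Acta2 and Cnn1 at 14.6 CPM, against 45.0, 59.8 and 191 CPM for that sum in Pdgfra+ and 13.5, 5.5 and 14.0 CPM in DP. Col1a1 was at 0.478 CPM or less in the DP and Pdgfra+ libraries of replicates 1 and 2. The part of feeder cells in the contractile difference was not tested.

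Fibroblast growth factor signals direct inner cell mass cells to PrE through the kinase ERK. On the ligand side, Fgf4, which the epiblast secretes, was higher in DP (2.51 ± 0.41), though at 1.47 to 3.04 CPM and 2.40% of its Oct4+ level. Fgf10 was higher at 94.3 to 106 CPM against 27.2 to 71.2 CPM (1.39). Among the receptors Fgfr2 was higher, as described, and Fgfr1 had a log2 fold change of 2.13 ± 0.67 that did not pass (adjusted p = 0.0686). Of the genes that ERK induces, many of which feed back on the pathway, 7 of 10 were higher, against 10.4% of all genes, and none lower. The phosphatase gene Dusp4 was at 34.2, 155 and 54.4 CPM in DP and at 13.5, 27.9 and 7.11 CPM in Pdgfra+ (2.27 ± 0.29). Every DP library exceeded the Pdgfra+ libraries. The feedback inhibitor genes Spry4 (1.88) and Spry2 (1.31) and the ETS factor genes Etv5 (1.54) and Etv4 (1.26) were higher along with Spry1 and Spred2. Dusp6, another phosphatase gene of this loop, did not pass (0.15 ± 0.20). Without the block 2 of the 7 passed, and DESeq2 without replicate 3 called 5.

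The cytokine LIF in the medium signals through LIFR and gp130 (Il6st) to JAK kinases and STAT3. Of 16 genes of the pathway 9 did not pass, 3 were higher and 4 lower, against 10.4% and 9.86% of all genes, with a median of 0.07. The receptor gene Lifr was higher (0.64), at 268, 200 and 208 CPM in DP and 186, 152 and 107 CPM in Pdgfra+, without overlap, while Il6st did not pass (0.16). Downstream, Stat3 (-0.45) and Jak2 (-0.58) were lower. The feedback gene Socs3, a direct STAT3 target, was lower (-0.74), and Socs2 was higher (2.03), as was Bcl3 (0.98). The ligand gene Lif was lower, at 53, 23.7 and 34.8 CPM against 84.1, 58.7 and 109 CPM (-1.19 ± 0.20). Without the block 1 of these 7 passed, and DESeq2 without replicate 3 called 2.

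Nodal and Activin act through shared receptors and SMAD2 and SMAD3, and Activin A was in the medium of all cells. Of 14 genes 7 were higher in DP and 2 lower, against 10.4% and 9.86% of all genes. Lefty2, an inhibitor and target of the pathway, was at 8.31, 227 and 18.2 CPM in DP and at 2.86, 15.6 and 0.974 CPM in Pdgfra+ (3.40 ± 0.45). Replicate 2 was the highest in both populations, so the groups overlapped while each pair differed in the same direction. Nodal was highest in replicate 2 as well, at 11.8, 59.4 and 7.62 CPM against 3.66, 6.71 and 1.36 CPM, but did not overlap, and Lefty1 overlapped at 5.15, 62.0 and 5.28 CPM against 2.17, 9.74 and 1.36 CPM. The SMAD partner gene Foxh1 was at 15.6, 63.2 and 15 CPM against 4.23, 2.65 and 1.95 CPM (3.19). Without replicate 2 there were 6 genes higher in this list, without the block 3, and with DESeq2 without replicate 3 there were 3. Smad3 was lower (-1.48 ± 0.21), at 14.4 to 32.9 CPM in DP and 49.6 to 82.0 CPM in Pdgfra+, and the antagonist gene Fst was lower as given above. Smad7 and Acvr1b were the remaining genes that were higher. In the BMP list 1 of 12 was higher, Bmp6 (1.48), and 2 lower, the inhibitor of differentiation gene Id3 (-1.68) and the receptor gene Bmpr2 (-0.65). The WNT list had Notum (2.13) and Dkk1 higher and the receptor-degrading ligase gene Rnf43 (-1.25) lower of 8 genes. Axin2, a general target, narrowly did not pass (1.01 ± 0.28, edgeR adjusted p = 0.0507), although its groups did not overlap.

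De novo DNA methylation genes were higher in DP. Dnmt3l, a cofactor without catalytic activity of its own, was at 216, 587 and 269 CPM in DP and at 61.9, 52.1 and 21.3 CPM in Pdgfra+ (3.00 ± 0.37). Dnmt3b was at 296, 741 and 499 CPM against 146, 251 and 69.3 CPM (1.81). Neither gene overlapped between the populations, and their DP means were 157% and 240% of those in Oct4+. Dnmt3a was higher by 0.78, and the demethylation gene Tet3 was lower by -0.94. The maintenance genes Dnmt1 and Uhrf1 and the others of the 9 did not pass. Without the block 1 of the 4 passed. Germline genes that DNA methylation holds silent in somatic cells were higher in 5 of 9, against 10.4% of all genes, and lower in none. Dppa2 (2.80), the piRNA pathway gene Mael (2.51) and Dppa4 led them, with Taf7l at 1.88 and the RNA helicase gene Ddx4 at 1.51. Without the block 2 of these 5 passed. Mael and Taf7l, with 18 reads each in Pdgfra+, reached the test through their DP counts. Of the 14 members listed, Sycp1, Asz1, Hormad1, Tex101 and Tdrd12 were below the count filter and leaned in both directions. The absence of lower genes thus covers the tested members only.

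Genes of the 2-cell-like state, a rare state of embryonic stem cells, were mostly below the count filter. The 3 tested were all higher in DP, Pramel7 as given above, Usp17lc (3.12, 64 reads in DP and 8 in Pdgfra+) and Zscan4d (2.68, 90 and 16 reads). All 3 reached the test through their DP counts, with 20 reads or fewer in Pdgfra+. Their shared direction was therefore largely set by the filter and is not a result about the list. Usp17lc and Zscan4d have near-identical copies, and their values are uncertain for that reason. The DP means were 3.27% and 1.60% of the Oct4+ means for Usp17lc and Zscan4d and 265% for Pramel7, where DP replicate 3 stood far above the other DP libraries. A set of 7 markers of this state without Pramel7 and Usp17lc (Zscan4c, Zscan4d, Zscan4f, Tcstv1, Tcstv3, Zfp352 and Tmem92) summed to 4.53, 15.9 and 5.81 CPM in DP, to 0.832 to 2.30 CPM in Pdgfra+ and to 232 to 828 CPM in Oct4+. None of the 3 passed without the block.

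Imprinted genes, expressed from 1 parental allele, were lower in 7 of 15 and higher in 3, against 9.86% and 10.4% of all genes. Peg10, a retrotransposon-derived gene of the placenta, was at 742, 202 and 934 CPM in DP and at 1466, 1182 and 4006 CPM in Pdgfra+ (-1.86 ± 0.29). The growth factor gene Igf2 (-1.45) and its neighbour H19 (-1.31), Sgce (-2.17), Plagl1 (-1.85), Peg3 (-1.17) and the CDK inhibitor gene Cdkn1c (-2.09) were the others. Cdkn1c was at 2.46, 3.55 and 7.12 CPM against 6.98, 10.5 and 54.0 CPM, so the groups overlapped narrowly and Pdgfra+ replicate 3 stood far above the rest. The amino acid transporter gene Slc38a4 was higher (3.38 ± 0.73), at 7.72, 38.8 and 4.79 CPM against 0.114, 1.80 and 2.14 CPM, and Mirg (1.73) and Snrpn (1.44) were higher too. Without the block 1 of the 7 and 1 of the 3 passed.

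Lysosomal genes were higher in 8 of 16 members, against 10.4% of all genes, and lower in 1. The hexosaminidase gene Hexa was at 184, 214 and 382 CPM in DP and at 78.0, 36.5 and 71.1 CPM in Pdgfra+ (2.09 ± 0.26), without overlap. The cathepsin genes Ctsc (1.05) and Ctsz (0.67) were higher by less, and the acid lipase gene Lipa was lower (-0.81). Without the block 2 of the 8 passed, and without replicate 2 there were 2. Respiratory chain genes of the nucleus differed little. Against 10.4% of all genes, 5 of 12 genes of complex IV and 3 of 9 of complex III were higher. In complex II 1 of 4 was higher, in complex I 1 of 36 (2.78%), and none was lower. The largest of these was Cox7c, at 0.60 ± 0.12. In ATP synthase 3 of 17 were higher, or 17.6%, against 10.4% of all genes. The mitochondrial genome's own genes did not pass in any of 7 cases, and mt-Co1 was at 2318 to 3333 CPM over both groups. Ribosomal protein genes had a median of 0.22, with 7 of 82 higher, a share below the 10.4% of all genes, and the germline-type copies Rpl10l (1.70) and Rpl39l (1.31) had the largest values. These small differences rested on the block, since 1 gene of complex IV and none of the other complexes or the ribosomal list passed without it.

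Glycolysis genes as a list did not lean one way, with 3 of 22 higher, 2 lower and a median of 0.01. The phosphofructokinase gene Pfkp was at 165, 172 and 122 CPM in DP and at 85.7, 28.1 and 30.7 CPM in Pdgfra+ (1.86 ± 0.30). The glucose transporter genes differed in opposite directions, with Slc2a3 higher (0.84) and Slc2a1 lower (-0.91), and the monocarboxylate transporter gene Slc16a1 was lower (-0.57). In cholesterol synthesis 4 of 17 were higher, each by 0.54 or less, against 10.4% of all genes, and the sterol sensor gene Insig1 was lower (-0.62). Threonine dehydrogenase (Tdh), an enzyme that mouse embryonic stem cells depend on, was at 70.4, 141 and 98.5 CPM against 29.1, 52.6 and 37.2 CPM (1.39 ± 0.10), and its partner Gcat was higher (0.89), while the mitochondrial folate enzyme gene Mthfd2 was lower (-0.57). None of the glycolysis and cholesterol calls was kept without the block.

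Of 6 CDK inhibitor genes, whose products hold cells in the G1 phase, 4 were lower in DP, against 9.86% of all genes. Cdkn1b (0.01) and Cdkn2c (0.68, edgeR adjusted p = 0.109) did not pass. Cdkn1c, Cdkn2a (-1.04), Cdkn2b (-0.92) and Cdkn1a (-0.72), together with cyclin D2 (Ccnd2, -1.19), made 5 of 12 lower, and the kinase gene Cdk6 was higher (1.66). Cdkn2a was at 21.4, 17.7 and 18.9 CPM in DP and at 36.0, 51.6 and 34.6 CPM in Pdgfra+, without overlap. Genes of S phase and mitosis had a median of 0.26, with 4 of 16 higher, against 10.4% of all genes. These were Ccnb1, Cdc20, Top2a and Ccna2, each higher by 0.68 or less. Without the block 1 of the G1 calls and none of the mitotic calls remained. Of 11 p53 targets and apoptosis genes, 2 were lower, among them the pore-forming effector gene Bax (-0.52), against 9.86% of all genes. None was higher. Among 12 immediate early genes, which respond to handling, Ier3 was lower (-1.11), and Jun and Jund did not pass (-0.52 and -0.25).

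**Figure D5:**
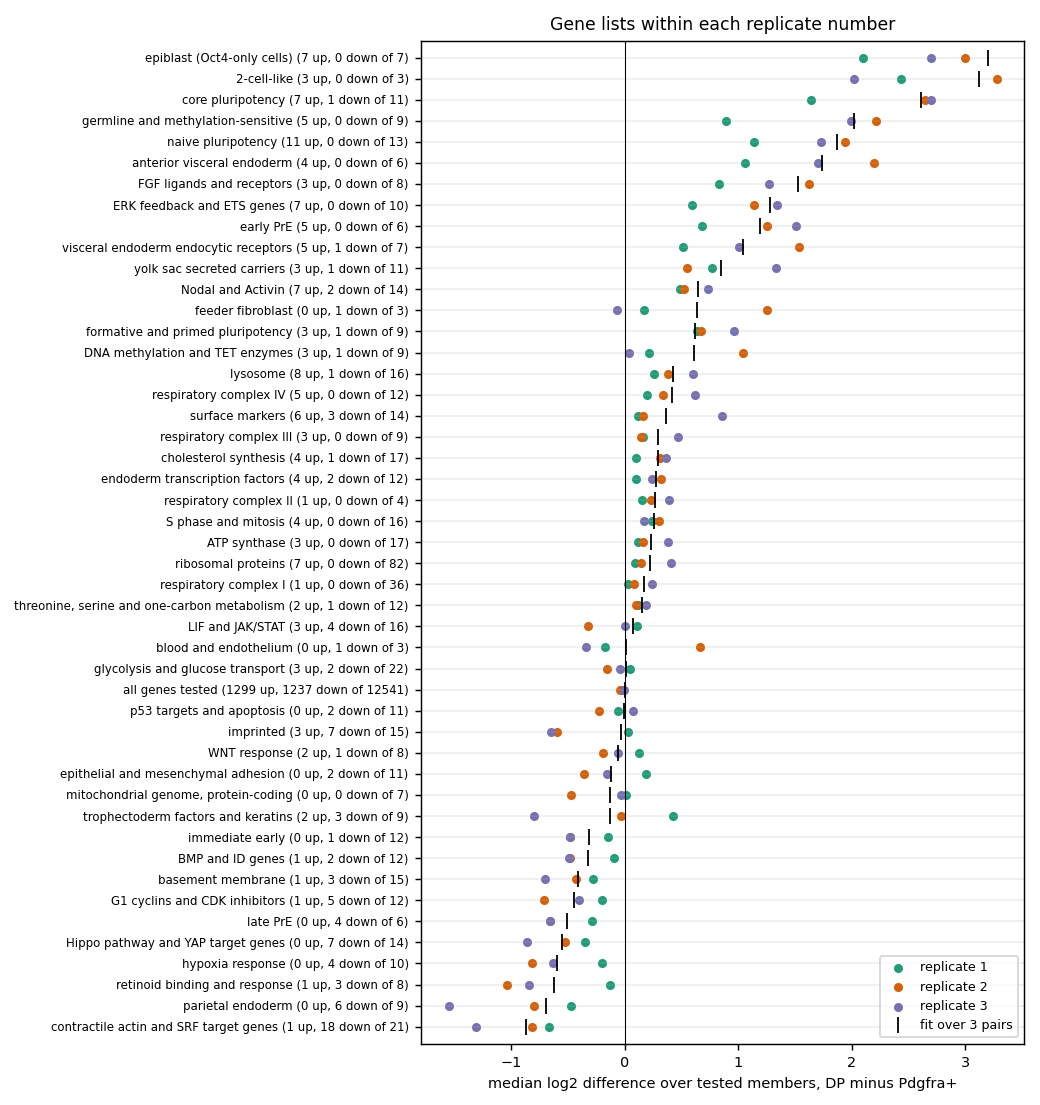
For each gene list with at least 3 tested members, the median log2 difference of DP minus Pdgfra+ within each replicate number (coloured points) and from the fit (bars), with the number of members higher and lower in brackets. The contractile list has medians of -0.67, -0.82 and -1.31 and the naive list of 1.14, 1.94 and 1.73 in replicates 1 to 3.

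Genes that passed were found on every chromosome tested. The median log2 fold change lay between -0.09 (chromosome 14) and 0.06 (chromosomes 13 and 15), with -0.04 on the X chromosome. The share of genes higher in DP lay between 8.27% (chromosome 16) and 13.1% (chromosome 1), and the share lower between 6.26% (chromosome 12) and 13.7% (X chromosome).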

How the data were processed

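The authors purified RNA from sorted cells and made stranded single-end libraries (NEBNext Ultra II Directional). They deposited raw counts per gene symbol. For these counts the aligner, the counting tool and the annotation were not given in the sources used here, and the submitters' processing notes list mm10. The single-cell libraries of the series were not used here. Groups and replicate numbers came from the sample labels. The table held 48952 genes, and 35 blank lines carried no count. Within DP and within Pdgfra+ no library was a repeat of another, since replicates differed beyond sampling noise (chi-square of 16.7 to 36.6 per degree of freedom). The Oct4+ libraries and pairs across populations were not compared in this way.

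Counts of the 3 DP and 3 Pdgfra+ libraries were filtered with filterByExpr, scaled by TMM and fitted with replicate number and group in R 4.3.3 with edgeR 4.0.16 (glmQLFit, glmQLFTest), with 2 residual degrees of freedom. Benjamini-Hochberg adjustment ran over all 12541 genes tested. The SE of a log2 fold change was derived from the F statistic (absolute fold change divided by its root). Deviations from the group means correlated at 0.295, 0.551 and 0.365 across genes between libraries of the same number and at -0.366 to 0.0798 between different numbers, and this pairing was read from the counts. CPM values used TMM over the 6 libraries, and shares of the Oct4+ level and marker sums used TMM over 9. Differences within a pair are on log2 CPM with a prior count of 2.

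Genes named are Pou5f1, Pdgfra, Amn and Tagln, the 8 largest log2 fold changes in each direction among genes that passed without overlap and reached 10 CPM in the higher population, and up to 4 members a list with the largest change among those that passed at 1 CPM or more. Where fewer than 2 passed, up to 2 members with the highest CPM were added. Other members are named where a sentence accounts for a list, and were chosen with their values seen. The 46 lists (39 written gene by gene, 7 by symbol pattern), the members and the tests were chosen with earlier results of these data known, so no list is independent evidence. Gene coordinates are from GENCODE M21 on mm10. Promoters are from RefSeq, and 9695 genes tested had 1 or more, chromosome 18 left out. Single members of some lists are counted but not reported here by name. Alternatives were no block, other scaling, other filters, DESeq2 1.42.0 and leaving out each replicate number.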

Additional observations from a re-analysis of the deposited data

How the results depend on the processing

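The direction of the 2536 genes that passed was the same under every alternative in which they were tested. This was nearly given, since the alternatives reused these libraries and 2535 of the genes differed in 1 direction in all 3 pairs. The number of calls was not the same. Without the replicate block, 859 genes passed on 6 libraries (560 higher, 299 lower, with 328 and 79 past the fold threshold) and 975 on all 9 libraries (655 higher, 320 lower, 98 lower past the fold threshold). With no filter 3825 passed of 24669 tested (1963 higher, 1862 lower, 818 higher past the fold threshold), and with the stricter filter of 10 CPM there were 854 genes higher, with 151 higher and 102 lower past the fold threshold, among fewer genes tested. Leaving out a replicate number gave 0 to 3568 genes in all, 0 to 1819 higher, 0 to 1749 lower, 0 to 734 higher and 0 to 395 lower past the fold threshold, with 0 when replicate 3 was left out. DESeq2 without replicate 3, chosen after seeing the data, gave 610 (373 higher, 237 lower, 213 and 73 past the fold threshold). The cause was not tested. DESeq2 with all replicates (2344), its size factors (2488) and library totals (2508) moved the number of calls by less than 1.5 times. The share of the Oct4+ level was 13.1% with library totals against 15.9%, and 25.8% over all 33 list members with at least 10 CPM in Oct4+, a choice made after seeing the data. Medians of 3 lists changed sign, WNT response to 0.66 on 9 libraries and 0.51 with no filter, the feeder list to -0.27 on 9 libraries and -1.11 with the stricter filter, and surface markers to -0.08 with the stricter filter, since other members were tested. Of the 159 named genes mt-Co1, which did not pass, changed sign without replicate 2, with values from -0.17 to 0.03 over the replicates left out. Without the block on 6 libraries 89 of them lost their call, and without replicates 1, 2 and 3 in turn 3, 54 and 149 did. Genes under about 1 CPM rest on few reads, and 2 residual degrees of freedom limit all calls.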

Other observations

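Among gap junction genes, looked at after values of this family had been seen, Gjb5 was at 105, 120 and 141 CPM in DP and at 27.7, 7.18 and 6.72 CPM in Pdgfra+, with a log2 fold change of 3.40 ± 0.48 (edgeR, adjusted p = 0.0184). The groups did not overlap, and the highest Pdgfra+ library was replicate 1. Gja4 was higher in DP by 3.45. Gja1, the widely expressed connexin 43, did not pass (0.12 ± 0.10), at 536 to 752 CPM in DP and 515 to 651 CPM in Pdgfra+.

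Surface proteins differed in both directions, with 6 of 14 higher and 3 lower, against 10.4% and 9.86% of all genes. Without the replicate block 5 were higher and 0 lower. Beside Ly6a, the adhesion molecule gene Pecam1 (2.61), the chemokine receptor gene Cxcr4 (2.13), the alkaline phosphatase gene Alpl (2.12), the thrombin receptor gene F2r (1.99) and the ephrin receptor gene Epha4 (1.25) were higher. F2r was at 222, 305 and 419 CPM against 106, 39.3 and 109 CPM, while the thrombin-binding Thbd was lower in DP. The hyaluronan receptor gene Cd44 (-1.55), Kit (-1.39), the receptor of stem cell factor, and the integrin gene Itga6 (-0.54) were lower, and each overlapped between the populations. Of trophectoderm factors and keratins, Tfap2c (2.60, 38 reads in DP and 7 in Pdgfra+) and Eomes (1.41) were higher and the simple-epithelium keratin genes Krt19 (-1.40), Krt18 (-0.95) and Krt8 (-0.80) were lower of 9, while Cdx2, a factor of trophectoderm, did not pass (-0.13 ± 0.32). In the adhesion list Vim and Itgb1 (-0.52) were lower of 11, and Cdh1 and Cdh2 did not pass. Hypoxia-responsive genes were lower in 4 of 10, against 9.86% of all genes. These were Slc2a1, Egln3 (-0.73), P4ha1 (-0.60) and Vegfa, and none of them passed without the block. In the retinoid list Rbp4, Dhrs3 (-1.02) and Rara (-0.69) were lower and Rarg (0.51) higher of 8, none of them without the block. Of endothelial and blood markers, 3 passed the count filter, and only Tek was lower (-1.49).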
